A study of Mus musculus with 24 samples.

Results

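The comparison asked in which liver cells transcripts changed when Brg1 (Smarca4) and Chd4 were deleted together from endothelium. The double-knockout effect in liver sinusoidal endothelial cells (LSECs) was set against the double-knockout effect in the other, non-endothelial (non-EC) cells of the same livers. It used 12 of the 24 RNA-Seq libraries of the series and 13466 of the 25361 genes in the expression table. The libraries were 3 in each of 4 groups (LSEC Ctrl, LSEC Brg1/Chd4-ECdko, non-EC Ctrl and non-EC Brg1/Chd4-ECdko). The remaining libraries came from Chd4-ECko and Brg1-ECko embryos, single mutants that are heterozygous for the other enzyme. They were used to class genes by fraction, to compare genotypes and in alternative fits. All livers were taken from mouse embryos at embryonic day 12.5, on a mixed background with males and females together. Control embryos (genotype Cre-) were littermates without the recombinase that carried at least 1 floxed allele of each gene. Double mutants were Brg1 fl/fl and Chd4 fl/fl with the VE-cadherin-Cre transgene, whose activity is endothelial and reaches some blood cells of the fetal liver as well. LSECs were the cells retained on CD146 MicroBeads, and non-EC cells were those that passed. Transcription inhibitors (actinomycin D, triptolide and anisomycin) were present in the digestion of all livers, and red cells were lysed during LSEC isolation. A data point was 1 embryo.

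CHD4 is the ATPase of the NuRD complex, which couples nucleosome remodeling to histone deacetylation and is known mainly for holding genes silent. BRG1 is an ATPase of the SWI/SNF complexes, which tend to open chromatin, and in other cells the enzymes have been found to oppose each other at shared genes. At midgestation the liver is the main blood-forming organ, and its sinusoids run between hepatoblasts and cords of maturing blood cells, so an endothelial fraction and its remainder are close neighbours in the tissue.

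Expression was given as TPM, a share of all transcripts corrected for transcript length, from which sequencing depth is unknown. Between 11450 and 13219 genes reached 1 TPM in a library. Endothelial transcripts marked the LSEC libraries: the VE-cadherin gene Cdh5 lay at 274 to 368 TPM in LSECs and at 3.33 to 10.9 TPM in non-EC cells, and Mcam, which encodes CD146, at 49.1 to 61.5 TPM against 0.258 to 0.772 TPM. The LSEC fraction was not purely endothelial. Hepatoblast genes summed to 5520 to 10700 TPM in control LSEC libraries against 22700 to 25200 TPM in control non-EC libraries. Stellate and mesenchymal genes summed to 2210 to 2800 TPM in control LSEC libraries against 82.6 to 149 TPM in control non-EC libraries. Mitochondrial transcripts made up 20.6 to 24.6% of control LSEC, 13.9 to 27.4% of Brg1/Chd4-ECdko LSEC, 6.17 to 7.69% of control non-EC and 6.43 to 6.65% of Brg1/Chd4-ECdko non-EC libraries. The Y-linked gene Eif2s3y was at 23.8 TPM or more in all 6 control libraries. In double mutants it was at 31.3, 0.874 and 0.683 TPM in LSECs and 14.6, 0.533 and 0.321 TPM in non-EC cells, and the part of sex in the results was not tested. Whole-gene TPM did not show the deletion. Chd4 was at 246 to 285 TPM in control and 242 to 256 TPM in Brg1/Chd4-ECdko LSECs, and Smarca4 at 134 to 161 TPM and 117 to 151 TPM. The table gives no exon values, so the deletion of the floxed exons was not checked here. By qRT-PCR, the authors found fewer Chd4 and Brg1 transcripts in LSECs of the mutants concerned at this stage, isolated with a LYVE1 antibody.

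The contrast was the double-knockout effect in LSECs minus that in non-EC cells, on log2(TPM + 1). A gene was called when the limma adjusted p was under 0.05 and the contrast exceeded 1 in size. Of the 13466 genes tested, 30 were called (0.223%), 23 higher (0.171%) and 7 lower (0.052%) in LSECs relative to non-EC cells. The leukocyte genes Ptprcap, Rac2 and Was, the progenitor gene Myb and the embryonic globin gene Hbb-bh1 were among those higher, and the arterial connexin gene Gja5 and the endothelial genes Tm4sf1 and Mecom among those lower. In all 30 genes the effect in LSECs was larger in size than that in non-EC cells. For the lower genes Gja5, Slc26a10 and Chst7 nothing is read from this. Their non-EC values were 0.468 TPM or less, where a fall could not show. For 19 of the 23 higher genes the non-EC contrast was within 0.3 of 0. By themselves, LSECs had 121 called genes (0.899%), 108 of them higher in double mutants, and non-EC cells had 32 (0.238%), 29 of them higher.

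LSEC and non-EC libraries of a genotype with the same number deviated from their group means together. They were treated as pairs from an embryo in an alternative fit only. The count of 30 and the adjusted p values printed without mention of a block come from the fit without pairs. With the embryo as a replicate block 55 genes were called (0.408%), 34 of them higher, including all 30. The count rested on individual libraries. It was 2, 1 and 2 without LSEC Ctrl replicates 1, 2 and 3, and 27, 2 and 8 without LSEC Brg1/Chd4-ECdko replicates 1, 2 and 3. Leaving out non-EC Ctrl replicates 1, 2 and 3 gave 1, 47 and 5, and leaving out non-EC Brg1/Chd4-ECdko replicates 1, 2 and 3 gave 1, 16 and 8. Ptprcap was called in each of these fits. The direction of each of the 30 genes did not turn in any of them where the gene was tested. The median contrast of all genes was 0.12, with 66% of genes above 0 (76.8% for the effect in LSECs and 53.8% for that in non-EC cells), so the division into higher and lower moved with the scaling. It was 25 higher and 28 lower under quantile normalization, 24 and 43 with libraries centred on their medians, and 23 and 19 without mitochondrial genes. Of the 30 genes, 24, 24 and 28 remained called under these scalings. The differences below are to be read against that shift of 0.12.

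**Figure D1:**
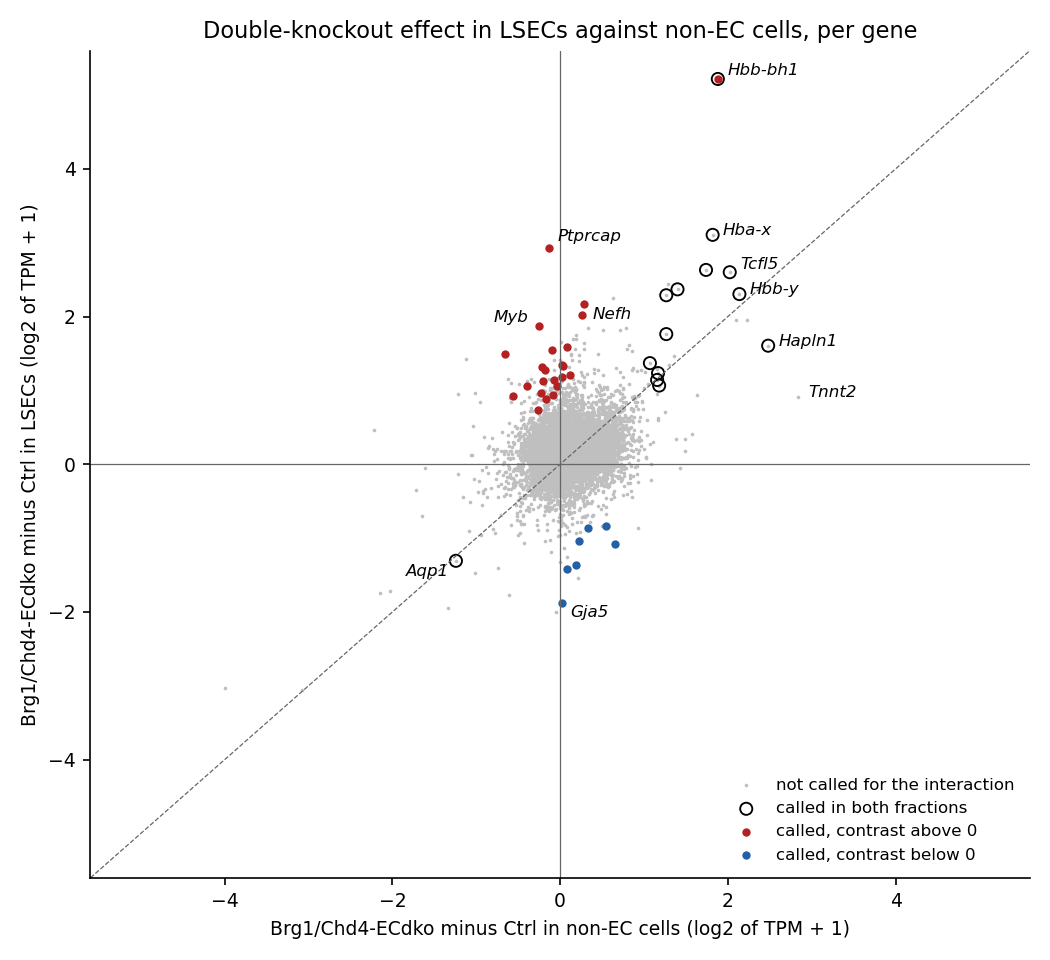
Each point is a gene, with the double-knockout effect (Brg1/Chd4-ECdko minus Ctrl, log2 of TPM + 1) in non-EC cells on the x axis and in LSECs on the y axis, and the dashed line marks equal effects. Of the 23 genes called higher, 19 lie within 0.3 of the vertical axis and Hbb-bh1 is farthest from it, the 7 called lower lie below the cloud, and the 14 genes called in both fractions (open circles) have effects of the same sign in both, with Hbb-bh1 farthest above the dashed line and Hapln1 farthest below it.

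Of the white blood cell genes listed, Ptprcap, Rac2 and Was were called higher. Ptprcap, on chr19:4203603-4206750 (GRCm39), encodes a protein associated with the leukocyte phosphatase CD45. It was at 1.02, 0.568 and 0.966 TPM in control LSECs and at 11.6, 17 and 11.1 TPM in Brg1/Chd4-ECdko LSECs. Non-EC cells held 48.2, 43.2 and 43.5 TPM in controls and 33.8, 48.0 and 42.7 TPM in double mutants. The LSEC groups were well apart, each still below every non-EC library, while the non-EC groups overlapped. The contrast was 3.05 ± 0.25 (SE; limma adjusted p = 0.000149), with an effect of 2.93 in LSECs and of -0.13 in non-EC cells.

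Rac2, a small GTPase of blood cells, showed the same arrangement at a smaller size. Its LSEC values were 8.33, 7.50 and 10.6 TPM in controls and 21.7, 16.8 and 23.0 TPM in double mutants, and its non-EC values were 45.5, 38.7 and 42.5 TPM and 33.2, 39.3 and 37.1 TPM. The contrast was 1.34 ± 0.20 (SE; limma adjusted p = 0.0228). Was, the Wiskott-Aldrich syndrome gene that steers actin assembly in blood cells, rose from 14.7, 14.4 and 16 TPM to 33.8, 37.1 and 35.7 TPM in LSECs, where the groups were far apart. In non-EC cells its values of 90.6, 67.5 and 91.2 TPM and of 77.7, 87.2 and 85.5 TPM overlapped, and the contrast was 1.17 ± 0.16 (SE; limma adjusted p = 0.0228).

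Of the 14 pan-leukocyte genes tested, these 3 were called higher (0.171% of all genes) and none lower (0.052% of all genes). A contrast above 0 was found in 12 of them, against 66% of all genes. The list's median contrast was 0.86, made of 0.70 in LSECs and -0.12 in non-EC cells. At an unadjusted p under 0.05, 9 of the 14 were higher, against 9.29% of all genes. The summed level in LSECs was 343 to 439 TPM in controls and 527 to 563 TPM in double mutants, without overlap, and the groups overlapped in non-EC cells, with 494 to 804 TPM and 565 to 695 TPM. Ptprc, which encodes CD45 itself, had 6.58, 5.26 and 8.38 TPM in control and 15.8, 10.9 and 14.0 TPM in double-mutant LSECs. Those groups did not overlap, but non-EC controls ranged from 8.21 to 23.0 TPM and the contrast of 1.07 ± 0.44 (SE) did not pass (limma adjusted p = 0.358). In bulk libraries, more cells of a type and more RNA per cell cannot be told apart.

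Other called genes outside that list are also known from blood cells. Samsn1, an adaptor of hematopoietic cells, was at 5.11, 5.61 and 6.67 TPM in control and at 17.2, 22.4 and 17.2 TPM in double-mutant LSECs, with overlapping non-EC groups between 37.4 and 56.2 TPM. Its contrast was 1.65 ± 0.23 (SE; limma adjusted p = 0.0228). Ptpn7, a phosphatase of hematopoietic cells, had a contrast of 1.32, and Gpsm3, a G-protein regulator of leukocytes, one of 1.21, both with a limma adjusted p of 0.0463. Gpsm3 was unusual in the group because its double-mutant LSEC values of 24.6, 23.5 and 27.3 TPM exceeded all its non-EC values, which ran from 12.6 to 18.9 TPM.

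No myeloid gene was called. Of 28 tested, 26 had a contrast above 0 and the median was 0.64, while the summed LSEC levels of 1160 to 2050 TPM in controls and 1660 to 1870 TPM in double mutants overlapped. Alox5, the 5-lipoxygenase of leukotriene synthesis, was at 1.51, 0.974 and 1.56 TPM in control and at 7.49, 12.1 and 11.4 TPM in double-mutant LSECs, and rose there by 2.25 (limma adjusted p = 0.000622). Its contrast of 1.63 had a limma adjusted p of 0.104, or 0.0408 with the embryo block, which called it. Mpo, the myeloperoxidase of granulocyte precursors, was at 128 to 318 TPM in non-EC cells and at most 5.90 TPM in LSECs, and its contrast of 1.42 ± 0.55 (SE) was not called.

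**Figure D2:**
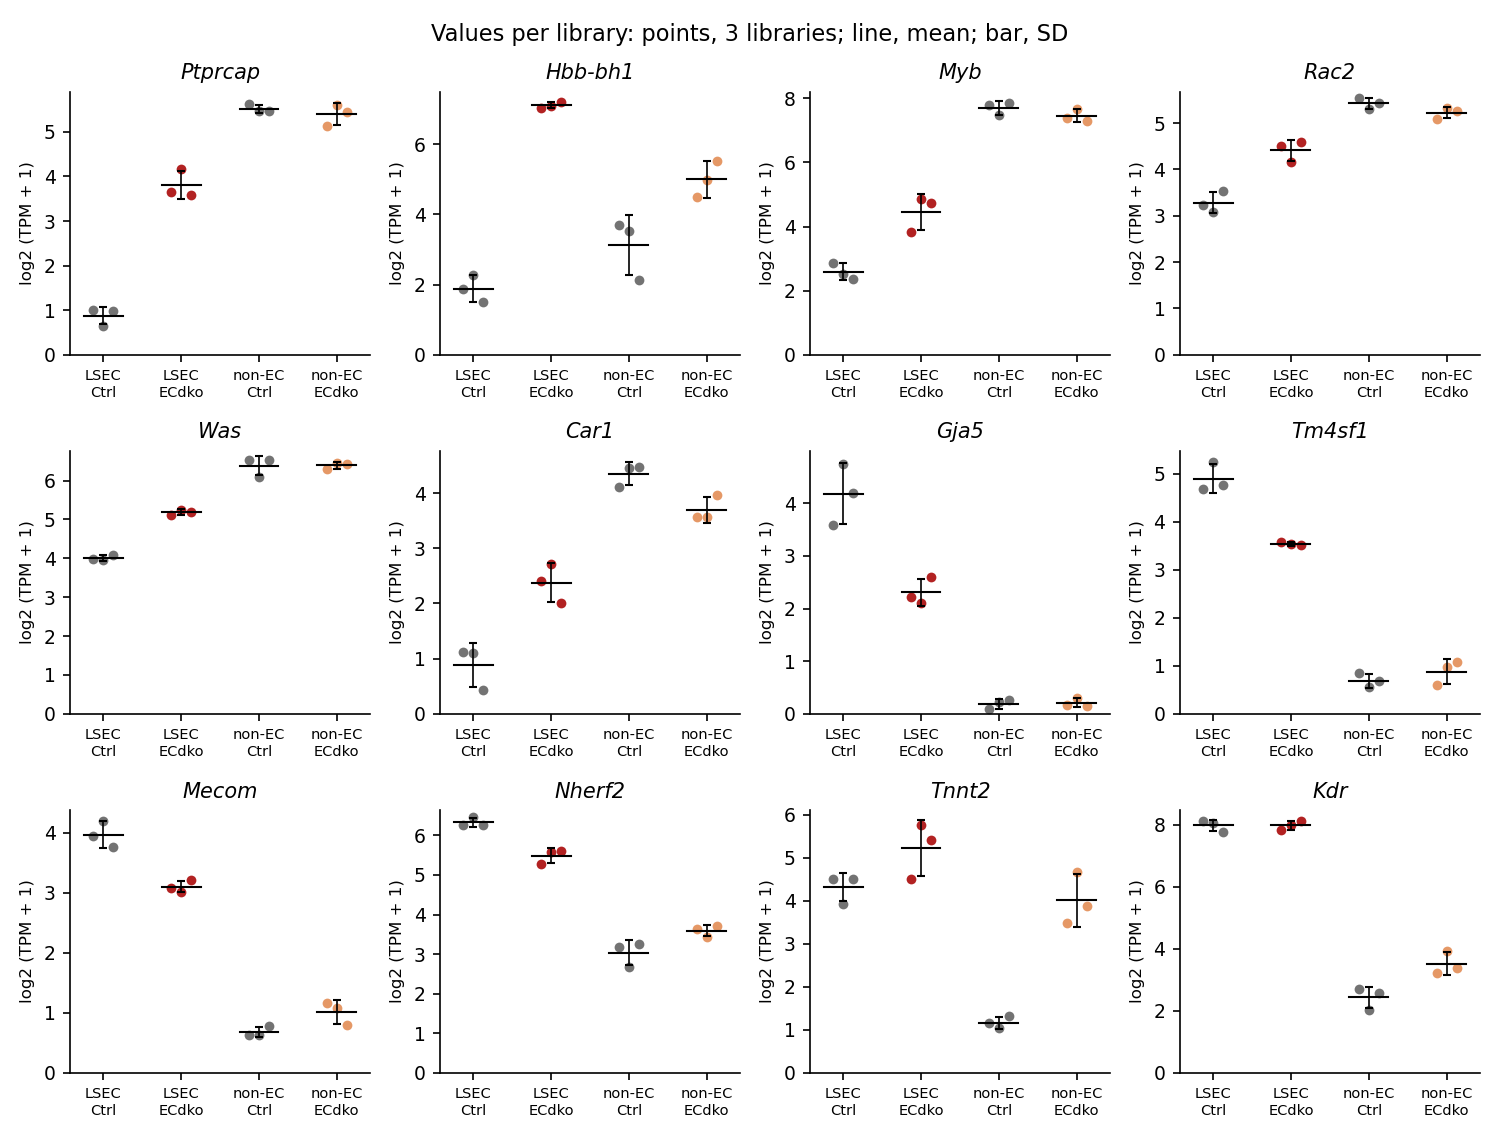
Each panel shows a gene as log2 (TPM + 1) in the 4 groups, with a point for each of 3 libraries, a line at their mean and a bar for the SD. In Ptprcap, Hbb-bh1, Myb, Rac2, Was and Car1 the Brg1/Chd4-ECdko LSEC points lie above the control LSEC points, in Gja5, Tm4sf1, Mecom and Nherf2 they lie below, and in Tnnt2 and Kdr the separation is in non-EC cells.

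Stem and progenitor cell genes were called in both directions. Of 20 tested, 3 were called higher (Myb, Adgrg1 and Ikzf1; 0.171% of all genes) and 1 lower (Mecom; 0.052% of all genes), with a median contrast of 0.57 against 0.12 for all genes. Myb, on chr10:21000834-21036883, a transcription factor needed for definitive hematopoiesis, was at 6.33, 4.78 and 4.17 TPM in control and at 13.1, 27.7 and 25.5 TPM in double-mutant LSECs. Non-EC cells had far more, with 219, 176 and 232 TPM in controls and 168, 204 and 156 TPM in double mutants, and these groups overlapped. The contrast was 2.12 ± 0.32 (SE; limma adjusted p = 0.0228).

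Adgrg1, the adhesion receptor GPR56 of stem cells, was at 4.27, 4.15 and 4.19 TPM in control LSECs and at 10.3, 16.2 and 18.7 TPM in double-mutant LSECs, with non-EC libraries between 58.0 and 84.2 TPM in both genotypes. Its contrast was 1.51 ± 0.27 (SE; limma adjusted p = 0.0463). Ikzf1, the lymphoid factor Ikaros, stood at the fold limit. It had 4.19, 5.24 and 3.90 TPM in control and 8.24, 9.20 and 6.77 TPM in double-mutant LSECs, with no overlap. In non-EC cells it had 73.5, 72.0 and 67.7 TPM in controls and 57.7, 61.7 and 57.6 TPM in double mutants. The contrast was 1.00 ± 0.18 (SE; limma adjusted p = 0.0463). The list's summed level in LSECs was 192 to 231 TPM in controls and 238 to 334 TPM in double mutants, and in non-EC cells 889 to 1020 TPM and 815 to 985 TPM.

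In the erythroid list Car1 was called higher for the contrast (0.171% of all genes were). All 25 genes tested had a non-EC effect below 0, with a median of -0.35 and none called, while 15 had an LSEC effect above 0 (76.8% of all genes did), with a median of 0.13 against 0.155 for all genes. Summed levels overlapped in LSECs, at 288 to 677 TPM and 420 to 654 TPM, and met at the edges in non-EC cells, at 3460 to 5690 TPM in controls and 2980 to 3590 TPM in double mutants. Car1, a carbonic anhydrase of red cell precursors, rose in LSECs from 1.18, 1.15 and 0.340 TPM to 4.33, 5.57 and 3.01 TPM, and was at 16.3, 21.1 and 21.3 TPM in control and 10.9, 10.8 and 14.7 TPM in double-mutant non-EC cells, again without overlap. The contrast was 2.15 ± 0.32 (SE; limma adjusted p = 0.0228).

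Other called genes are known from red cells. Mfsd2b, a sphingosine-1-phosphate exporter of red cells and platelets, had LSEC values of 5.08, 6.60 and 4.43 TPM in controls and of 9.41, 14.0 and 13.6 TPM in double mutants. In non-EC cells it had 87.0, 73.5 and 79.4 TPM against 54.2, 65.4 and 62.5 TPM, and the contrast was 1.45. Rbm38, an RNA-binding protein of late erythroid splicing, had a contrast of 1.2, with LSEC values of 17.9, 18.8 and 16.7 TPM in controls and of 27.1, 40.8 and 41.4 TPM in double mutants. Its non-EC values were 130, 120 and 120 TPM in controls and 98.7, 113 and 103 TPM in double mutants. Ache, the acetylcholinesterase that red cells carry on their surface, had a contrast of 1.48 at low LSEC levels, 0.731 to 0.857 TPM in controls and 1.72 to 2.80 TPM in double mutants. Its non-EC values were 8.43 to 13.1 TPM in controls and 5.21 to 7.62 TPM in double mutants. The LSEC effects of 0.97 for Rbm38 and 0.93 for Ache were not called, and the non-EC effects were -0.23 and -0.56. The limma adjusted p was 0.0228 for Mfsd2b, 0.0284 for Rbm38 and 0.0479 for Ache.

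Embryonic globin genes were called higher in double mutants of both fractions. These genes belong to the primitive red cells of the early embryo and are silenced when definitive red cells take over. Hbb-bh1, on chr7:103490844-103492371 (GRCm39), was at 2.67, 3.84 and 1.85 TPM in control LSECs and at 129.6, 135 and 146 TPM in double-mutant LSECs. In non-EC cells it went from 12.0, 10.4 and 3.40 TPM to 21.4, 30.6 and 45.2 TPM. The genotypes were apart in each fraction. All double-mutant values were higher in LSECs than in non-EC cells, while the control values of the fractions overlapped. The effects were 5.22 ± 0.35 and 1.88 ± 0.35 (SE), and the contrast was 3.34 ± 0.50 (SE; limma adjusted p = 0.0228). It was the only gene of the 30 that was also called in non-EC cells.

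Hba-x rose from 11.9, 6.14 and 11.8 TPM to 113, 63.1 and 101 TPM in LSECs and from 12.2, 5.41 and 4.27 TPM to 19.4, 28.8 and 31.5 TPM in non-EC cells. Its contrast of 1.29 ± 0.48 (SE) was not called (limma adjusted p = 0.316). Hbb-y rose by 2.31 in LSECs, from 7.64 to 15.9 TPM up to 54.3 to 78.0 TPM, and by 2.14 in non-EC cells, from 2.03 to 5.69 TPM up to 13.3 to 23.5 TPM. The contrast of 0.17 had a 95% interval of -0.76 to 1.10, which leaves room for a difference of either sign. The median contrast over the 3 embryonic globin genes was 1.29.

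For adult globins no difference was called. Their summed level was 471 to 1750 TPM in control and 449 to 837 TPM in double-mutant LSECs, and 2060 to 9510 TPM and 2150 to 4920 TPM in non-EC cells, so that the genotypes overlapped in each. None of the 4 was called, and the median contrast was 0.11. Hba-a1 had a contrast of 0.37 ± 0.58 and Hbb-bt one of -0.46 ± 1.35 (SE), and the sign of each depended on which library was left out. Adult globin paralogs are nearly identical, so the division of reads among them is uncertain.

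Promoter windows from RefSeq (GRCm38.p6) are shown for the embryonic genes Hbb-y and Hba-x, which rose in both fractions, and for the adult gene Hbb-bt, which was not called in either. Each covers the 250 bases before the start, 5′ to 3′ on the strand of the gene, and capitals mark CACCC or its reverse complement GGGTG, letters of the box that Krüppel-like factors bind. The windows are chr7:103853208-103853457 (minus strand), chr11:32276350-32276599 (plus strand) and chr7:103813924-103814173 (minus strand).
Hbb-y: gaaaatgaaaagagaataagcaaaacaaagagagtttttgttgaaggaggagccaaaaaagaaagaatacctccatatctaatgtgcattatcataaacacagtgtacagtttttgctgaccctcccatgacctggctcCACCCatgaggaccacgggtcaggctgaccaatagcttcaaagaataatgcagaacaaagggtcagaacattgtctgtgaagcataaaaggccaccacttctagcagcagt
Hba-x: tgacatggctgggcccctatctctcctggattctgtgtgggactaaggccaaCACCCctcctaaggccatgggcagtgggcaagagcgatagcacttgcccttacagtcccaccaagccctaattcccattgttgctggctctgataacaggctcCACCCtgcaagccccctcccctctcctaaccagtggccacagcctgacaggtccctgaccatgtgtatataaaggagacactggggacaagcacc
Hbb-bt: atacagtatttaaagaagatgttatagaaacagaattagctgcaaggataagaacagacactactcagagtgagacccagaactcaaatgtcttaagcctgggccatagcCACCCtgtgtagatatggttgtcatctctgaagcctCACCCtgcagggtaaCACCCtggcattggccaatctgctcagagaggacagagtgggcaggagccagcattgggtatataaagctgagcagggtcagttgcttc
The letters occur 1, 2 and 3 times. They occur in 52% of all 32851 promoter windows of that length, and in 12 of the 14 windows found for genes called higher and 4 of the 6 found for genes called lower. AGATAA or its reverse complement, the letters bound by GATA factors, occurs in 9.99% of all windows, in 1 of those 14 and in 2 of those 6. A match is a run of letters and not a bound site.

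Further called genes stood outside the leukocyte, progenitor and erythroid lists. Nefh, the heavy neurofilament subunit of neurons, was at 1.15, 1.41 and 1.13 TPM in control LSECs and at 7.75, 9.95 and 6.66 TPM in double-mutant LSECs. Non-EC values were 4.55, 3.47 and 5.82 TPM and 5.95, 5.19 and 5.84 TPM, which overlapped, and the contrast was 1.75 ± 0.25 (SE; limma adjusted p = 0.0228). It was the called gene of the 14 neuronal genes tested (0.171% of all genes were called higher). Their median contrast was 0.36, against 0.12 for all genes. Slc35d3, a nucleotide-sugar transporter needed for platelet granules, rose in LSECs from 3.36, 3.83 and 2.69 TPM to 11.3, 20.2 and 26.0 TPM, with overlapping non-EC groups at 28.3 to 46.2 TPM. Its contrast was 1.89 (limma adjusted p = 0.0478). Foxh1, a cofactor of Nodal signaling in the early embryo, was at 0.104 to 0.287 TPM in control and 1.56 to 2.09 TPM in double-mutant LSECs, at a contrast of 1.45 (limma adjusted p = 0.0479). The remaining genes called higher, named after their values were seen, were Cpne7, Fgf23, Treml2, Emilin2, Ptk2b and Fermt3, with contrasts of 1.03 to 1.53.

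The 7 genes called lower each had more TPM in control LSECs than in control non-EC cells. Gja5, on chr3:96812009-96984732, encodes connexin 40 of arterial endothelium. It fell in LSECs from 11, 25.9 and 17.4 TPM to 3.65, 3.29 and 5.06 TPM and was at 0.238 TPM or less in all 6 non-EC libraries. The contrast was -1.90 ± 0.34 (SE; limma adjusted p = 0.0463). Tm4sf1, a tetraspan membrane protein of endothelial nanopodia, fell from 24.9, 36.9 and 26.4 TPM to 11.1, 10.6 and 10.4 TPM, with non-EC values of 0.462 to 1.11 TPM. Its contrast was -1.55 ± 0.25 (SE; limma adjusted p = 0.0284). In both genes the LSEC groups were far apart and the non-EC levels were near 0, where a fall of that size could not show.

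Slc26a10 fell in LSECs from 17.9, 17.4 and 15.5 TPM to 5.96, 4.67 and 6.65 TPM, and Chst7, a carbohydrate sulfotransferase, from 7.49, 10.1 and 8.60 TPM to 3.56, 3.64 and 3.98 TPM. Their contrasts were -1.50 and -1.26, with non-EC values under 0.5 TPM throughout. A fall in non-EC cells could not show at such levels, so these contrasts restate the LSEC fall. In Fam124a, Nherf2 and Mecom the levels of the fractions were closer in double mutants, and the non-EC effect was not called in any of them. Fam124a fell from 29.4, 30.0 and 26.1 TPM to 11.8, 12.3 and 14.7 TPM in LSECs and was at 5.40, 9.19 and 4.19 TPM and 11.5, 7.86 and 11 TPM in non-EC cells, for a contrast of -1.74. Nherf2, a scaffold of membrane transporters, had LSEC values of 76.3, 86.6 and 75.3 TPM in controls and of 37.6, 46.7 and 47.8 TPM in double mutants. Its non-EC values of 8.12, 5.38 and 8.52 TPM in controls lay below the 11.3, 9.83 and 12.0 TPM of double mutants, and the contrast was -1.39. Mecom, a transcription factor of stem cells and endothelium, was at 14.4, 17.4 and 12.5 TPM in control and at 7.42, 7.11 and 8.22 TPM in double-mutant LSECs, with a contrast of -1.2. The limma adjusted p was 0.0228 for Slc26a10, 0.0246 for Nherf2, 0.0463 for Fam124a and 0.0479 for Chst7 and Mecom.

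Endothelial lists had medians below that of all genes. Of 29 pan-endothelial genes, 24 had a contrast below 0, at a median of -0.25, and none was called. Of all genes, 66% had a contrast above 0. At an unadjusted p under 0.05, 10 of them were lower, against 3.27% of all genes. The median was -0.18 over 21 sinusoidal genes, -0.33 over 18 basement membrane genes and -0.23 over 13 endothelial adhesion genes. It was -0.23 over 21 Notch and arteriovenous genes, of which Gja5 was called lower (0.052% of all genes were). The stellate and mesenchymal list, which stands for other cell types, had a median of -0.14 over 20 genes. A contrast below 0 was found in 18 of them, so contrasts below 0 were not particular to endothelial lists. At an unadjusted p under 0.05, 1 of the 20 was lower. The median effect was -0.19 in LSECs and 0.11 in non-EC cells for pan-endothelial genes, and 0.05 and 0.28 for basement membrane genes. Ephb4, the venous ephrin receptor, passed the limma adjusted p at 0.0291 with a contrast of -0.98, just short of the fold limit. It was at 103 to 128 TPM in control and 99.7 to 113 TPM in double-mutant LSECs, which overlap, and at 17.7, 14.5 and 18.3 TPM in control and 31.7, 28.2 and 31.9 TPM in double-mutant non-EC cells. Cmtm8, a MARVEL-domain membrane protein, also passed the adjusted p but not the fold limit, with a contrast of -0.88 (limma adjusted p = 0.0463).

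Ramp2, the co-receptor for adrenomedullin, had a contrast of -1.07 (limma adjusted p = 0.0505, or 0.0197 with the embryo block) and non-EC values of 1.98 to 2.58 TPM in controls and 3.99 to 6.03 TPM in double mutants. Gpr182, a scavenging chemokine receptor of sinusoids, had the same contrast (limma adjusted p = 0.0889, or 0.0467 with the block). It had 129 to 158 TPM in control and 87.8 to 114 TPM in double-mutant LSECs. Summed pan-endothelial levels did not separate genotypes in non-EC cells, at 301 to 347 TPM and 268 to 365 TPM, and in LSECs were 2660 to 3430 TPM and 2400 to 3030 TPM. Among the markers checked, the contrasts of Cdh5 (-0.52 ± 0.39), Stab2 (-0.44 ± 0.26), Lyve1 (-1.21 ± 0.39) and Mcam (-0.05 ± 0.23, SE) were not called.

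**Figure D3:**
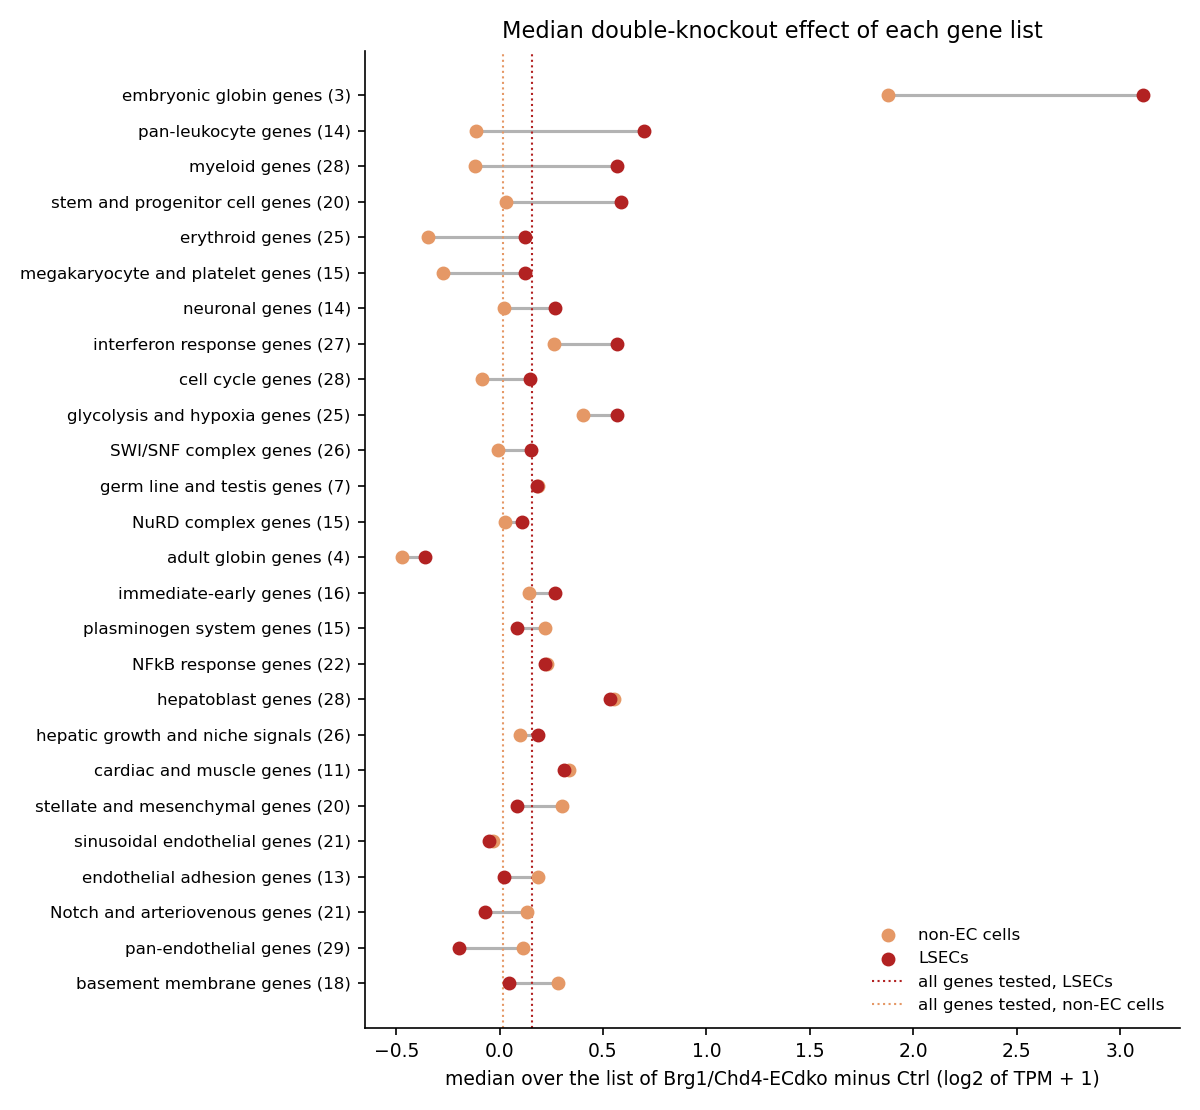
Each row is a gene list with its number of genes tested, and points give the median double-knockout effect (log2 of TPM + 1) in LSECs and in non-EC cells, with dotted lines at the medians of all genes tested. The pan-leukocyte, myeloid, progenitor and erythroid lists have the LSEC point to the right of the non-EC point, the pan-endothelial and basement membrane lists have it to the left, and the hepatoblast and sinusoidal points nearly coincide.

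The contrast differed with the fraction in which a gene was higher in the single mutants. Genes were classed by the 12 single-mutant libraries, which the contrast does not use, as higher in a fraction when all 6 of its libraries exceeded all 6 of the other and the mean log2 difference was above 1. The 950 genes higher in non-EC cells had a median contrast of 0.27, and 81.8% were above 0. They held 15 of the 23 genes called higher (0.171% of all genes). At an unadjusted p under 0.05, 28.6% of them were higher and 0.842% lower, against 9.29% and 3.27% of all genes. The 2517 genes higher in LSECs had a median contrast of -0.02, and 47.7% were above 0. They held 6 of the 7 called lower (0.052% of all genes), and by unadjusted p 2.15% of them were higher and 8.86% lower. The 9999 other genes had a median of 0.13. The contrast itself contains the control levels, so nothing is read from the control means, by which 22 of the 23 genes called higher had more TPM in non-EC cells (54.3% of all genes) and 7 of the 7 called lower had more in LSECs. How far cells or RNA of the other fraction carried these differences was not tested.

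A further set of genes was called in each fraction by itself. LSECs and non-EC cells shared 14 called genes, all with the same sign in both, of which 13 were not called for the contrast. Tcfl5, a helix-loop-helix factor of the testis, was at 1.02 to 1.70 TPM in control and 11.5 to 15.4 TPM in double-mutant LSECs, and at no more than 0.72 TPM and 4.31 to 6.24 TPM in non-EC cells. Its effects were 2.60 ± 0.19 and 2.02 ± 0.19 (SE), and the contrast of 0.58 was not called (limma adjusted p = 0.394). Trap1a, a tumour rejection antigen gene on the X chromosome, rose from at most 0.139 TPM to between 3.93 and 8.30 TPM in LSECs and from at most 0.680 TPM to between 2.63 and 4.15 TPM in non-EC cells. In both genes each double-mutant library was above every control library of its fraction.

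Tnni3, the cardiac troponin I gene, had an effect of 2.37 in LSECs and of 1.40 in non-EC cells, and Lin28a, an RNA-binding protein of embryonic cells, one of 1.37 and of 1.07. Susd3, Xlr4a, Hapln1, Scd1, Itih4 and Fabp3 were the other genes higher in both. Hapln1, a link protein of the hyaluronan matrix, had an effect of 2.48 in non-EC cells and of 1.61 in LSECs, and its contrast of -0.88 had a 95% interval of -1.93 to 0.18. Aqp1, the water channel of endothelium and red cells, was the gene that fell in both. It went from 120.3, 193 and 133 TPM to 52.2, 57.1 and 66.4 TPM in LSECs and from 22.2, 29.6 and 29.8 TPM to 11.6, 9.45 and 11.5 TPM in non-EC cells. The contrast was -0.07, with a 95% interval of -0.59 to 0.46.

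**Figure D4:**
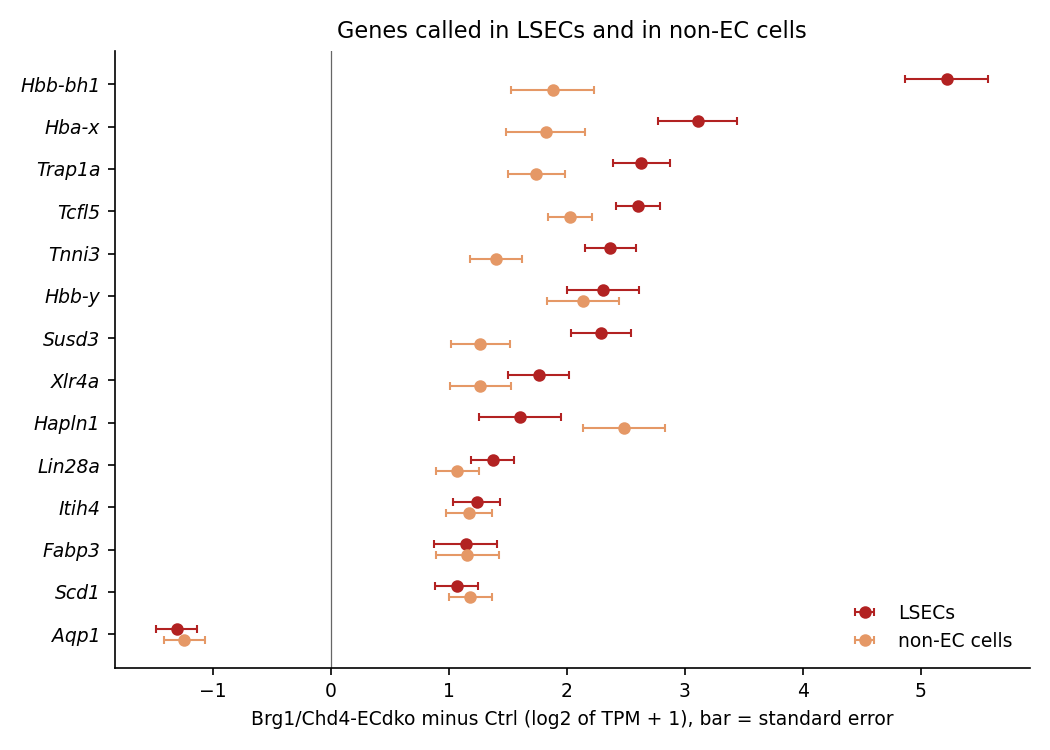
Points give the double-knockout effect (log2 of TPM + 1) in LSECs and in non-EC cells for the 14 genes called in both, with bars for the standard error. Aqp1 alone lies below 0, and Xlr4a, Lin28a, Scd1, Itih4, Fabp3, Hbb-y and Aqp1 have overlapping bars. Hbb-bh1 is farthest apart at 5.22 and 1.88.

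Of all genes, 76.8% had an effect above 0 in LSECs and 53.8% in non-EC cells. All 28 hepatoblast genes tested had an effect above 0 in each fraction, with medians of 0.53 in LSECs and 0.55 in non-EC cells and a median contrast of -0.01. Their summed level was 7560 to 12200 TPM in double-mutant LSECs, which overlapped the control range, and 29800 to 39600 TPM in double-mutant non-EC cells, which did not. Epcam was the 1 member called in LSECs, where 0.899% of all genes were called, and its contrast was 0.95 (limma adjusted p = 0.307). Glycolysis and hypoxia genes had medians of 0.57 and 0.41, with 25 of 25 and 24 of 25 above 0, and a median contrast of 0.21. Their summed levels separated the genotypes in both fractions, at 4530 to 5120 TPM and 5970 to 7360 TPM in LSECs and at 5390 to 5660 TPM and 6540 to 7900 TPM in non-EC cells. Interferon response genes had medians of 0.57 and 0.27 and a median contrast of 0.35, with 4 of 27 called higher in LSECs (0.899% of all genes were called there) and none in non-EC cells. None of these genes was called for the contrast.

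Some genes were called in non-EC cells and not in LSECs, which does not show that the fractions differ. Of the 32 genes called there, 18 were not called in LSECs. All 18 had the smaller effect in LSECs, which choosing them in this way makes likely. Tnnt2, the cardiac troponin T gene, was at 1.22, 1.04 and 1.48 TPM in control and at 10.1, 24.5 and 13.6 TPM in double-mutant non-EC cells, while LSEC groups of 14.2 to 21.8 TPM and 21.8 to 53.0 TPM met at the edges. Its contrast of -1.93 ± 0.45 (SE) was not called (limma adjusted p = 0.128) but was with the embryo block (0.0464). Tnni1, a slow skeletal troponin, had a contrast of -1.17 and Ddit4, a stress-induced inhibitor of mTORC1, one of -1.04, both without a call. Kdr, the main VEGF receptor, rose in non-EC cells from 5.47, 3.11 and 4.90 TPM to 8.37, 14.3 and 9.41 TPM and had 216 to 279 TPM in control and 227 to 279 TPM in double-mutant LSECs. Its contrast of -1.08 was not called (limma adjusted p = 0.141). The non-EC count of 32 became 21 without non-EC Ctrl replicate 2 and 20, 10 and 18 without non-EC Brg1/Chd4-ECdko replicates 1, 2 and 3.

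In the other lists no gene was called for the contrast. The remodeler lists had a median of 0.14 over 15 NuRD genes and 0.21 over 26 SWI/SNF genes, against 0.12 for all genes. Chd3, the NuRD paralog of CHD4, rose in non-EC cells from 8.95, 7.64 and 7.15 TPM to 15.7, 26.1 and 16.6 TPM, at a contrast of -0.57. The median contrast was 0.38 over 15 megakaryocyte and platelet genes, 0.24 over 28 cell cycle genes, 0.19 over 7 germ line and testis genes and 0.08 over 16 immediate-early genes. It was 0.03 over 15 plasminogen system genes, -0.01 over 22 NFkB response genes, -0.06 over 26 hepatic growth and niche signals and -0.08 over 11 cardiac and muscle genes. Within them, Ccl2, a monocyte chemokine, had a contrast of 1.36 and Edn1, endothelin 1, one of 1.14, neither of them called. Ccl2 and Edn1 were called higher in LSECs, where Ccl2 went from 2.82, 1.61 and 3.66 TPM to 9.67, 9.21 and 12.0 TPM and Edn1 from 8.80, 12.7 and 8.40 TPM to 20.6, 20.2 and 30.4 TPM.

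Whether the fraction difference belonged to the double knockout or to loss of Chd4 was asked by the same contrast with Chd4-ECko in place of control, where single mutants are heterozygous for the other enzyme. Of 13775 genes, 5 were called (0.0363%), all lower with the double mutant, and none of the 30 genes was among them. The fit over all 24 libraries called 6 of the 30 even for the contrast with control, so the lack of a call does not show that they were alike in Chd4-ECko. At an unadjusted p under 0.05, 7 of the 30 differed from Chd4-ECko, against 757 of all genes. The 5 called genes, named here after their values were seen, were Thy1, Sncg, Prl3b1, Cpa1 and Cyp4b1. Thy1, a surface glycoprotein, was at 13.1, 13.6 and 12.4 TPM in Chd4-ECko LSECs, at 2.74, 2.90 and 3.03 TPM in Brg1/Chd4-ECdko LSECs and at 2.82, 3.41 and 2.96 TPM in control LSECs, with 0.683 TPM or less in all non-EC libraries of these genotypes. Sncg, gamma-synuclein, was at 33.3, 31.4 and 31.4 TPM, 9.23, 11.1 and 14.1 TPM and 16.9, 12.0 and 13.3 TPM in the same groups of LSECs. The difference was -1.83 for Thy1 (limma adjusted p = 0.00573) and -1.70 for Sncg (limma adjusted p = 0.00326). Non-EC values of Sncg, Prl3b1, Cpa1 and Cyp4b1 were 0.52 TPM or less throughout. A fall could not show at the non-EC levels of these 5 genes, so their differences restate the LSEC difference from Chd4-ECko.

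That count became 130 without non-EC Chd4-ECko replicate 1, 10 without LSEC Brg1-ECko replicate 1, and 3 without LSEC Chd4-ECko replicate 1 or 2. Against control, the Chd4-ECko contrast between fractions called 95 genes in the same fit, 67 of them higher, including 9 of the 30. It was 3.30 for Hbb-bh1, 3.35 for Ptprcap, 4.13 for Car1 and 0.05 for Chst7. Both genotypes were set against the same control libraries, so this overlap does not measure how alike they are. Ptprcap had 15.2, 25.2 and 10.5 TPM in Chd4-ECko LSECs, which overlapped the double mutant, and 6.47, 1.81 and 0.210 TPM in Brg1-ECko LSECs. Hbb-bh1 had 102, 789 and 328 TPM in Chd4-ECko LSECs and 1.84, 5.40 and 2.21 TPM in Brg1-ECko LSECs, near control. Car1 had 20.2, 58.8 and 18.1 TPM in Chd4-ECko LSECs, above all the double-mutant values. Its difference of -1.98 from Chd4-ECko had an unadjusted p of 0.00153 and a limma adjusted p of 0.781. Chst7 went the other way, with 8.05, 8.59 and 10.6 TPM in Chd4-ECko LSECs and 1.98, 4.62 and 3.61 TPM in Brg1-ECko LSECs, so that Chd4-ECko overlapped control and Brg1-ECko overlapped the double mutant. Its difference of -1.31 had a limma adjusted p of 0.111. Gja5, at 3.62, 5.71 and 7.45 TPM in Chd4-ECko and 5.56, 6.78 and 10.3 TPM in Brg1-ECko LSECs, was below all control values in each of the 3 mutant genotypes.

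**Figure D5:**
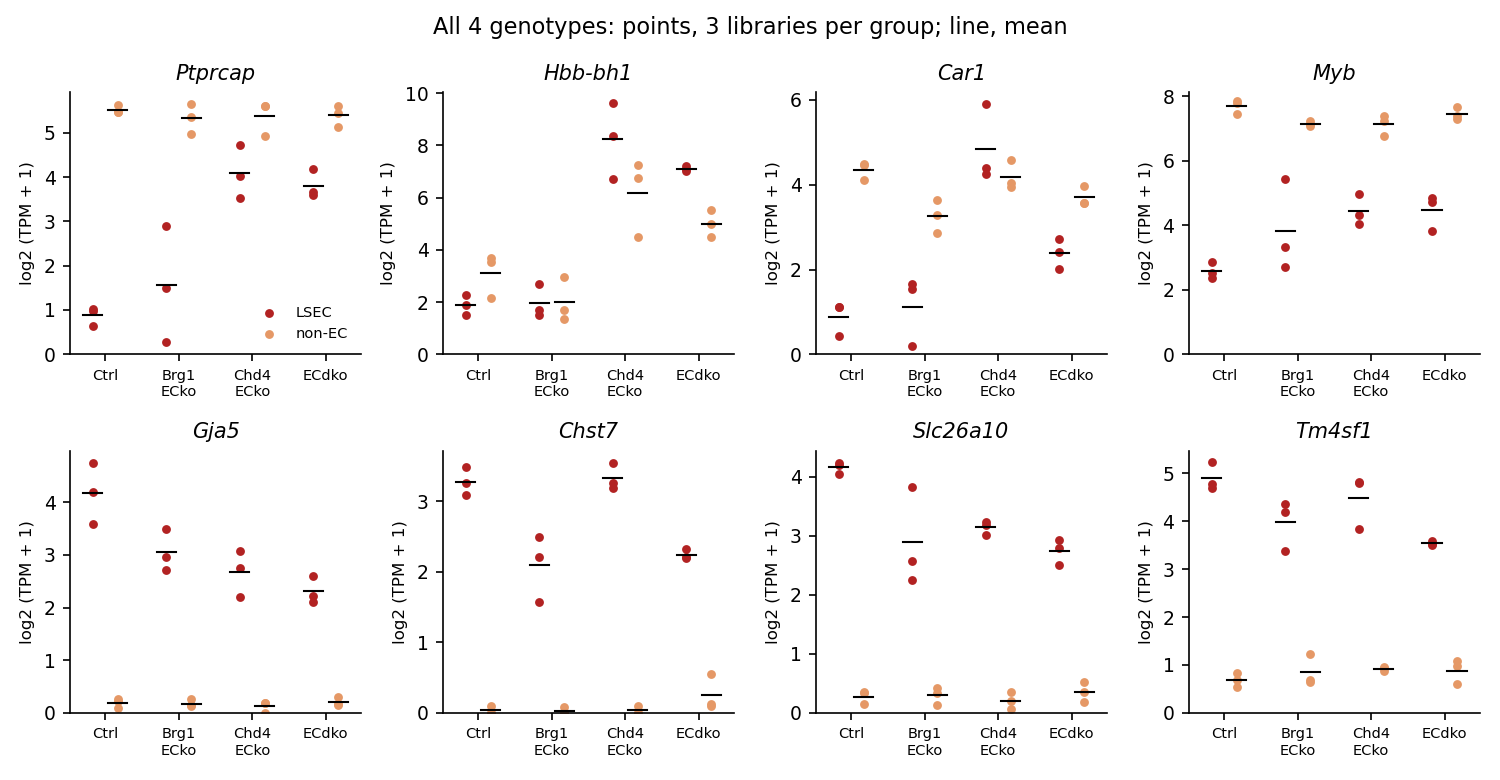
Each panel shows a gene as log2 (TPM + 1) in the 4 genotypes, with 3 library points and their mean for LSECs and for non-EC cells. In LSECs, Hbb-bh1 and Car1 points lie above control in Chd4-ECko and in the double mutant (ECdko) and near control in Brg1-ECko. Chst7 points lie below control in Brg1-ECko and the double mutant and overlap control in Chd4-ECko, though its difference between Chd4-ECko and the double mutant was not called. Gja5 points lie below control in all 3 mutant genotypes.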

How the data were processed

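Poly-A RNA libraries were prepared with a Watchmaker kit and sequenced as paired ends, and the authors computed the deposited TPM values per gene with CLC Genomics Workbench. The submitters' processing notes name the build GRCm39 (mm39). TPM does not keep depth, so no depth or counting error per library can be given and precision comes from 3 libraries per group. Group means, which fill 8 further columns of that table, were left aside. The labels give batch 1 for each of the 24 samples.

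Here log2(TPM + 1) was fitted with limma 3.58.1 in R 4.3.3 (data.table, version 1.17.8), moderated with a trend on mean expression, over genes that reached 1 TPM in 3 or more of the 12 libraries, with a mean per group and no block. Tests were two-sided and Benjamini-Hochberg adjusted over all genes tested, and a gene was called at an adjusted p under 0.05 with a contrast above 1 in size. The contrast against Chd4-ECko was fitted over all 24 libraries. The script was tested on simulated data of the 12 libraries: 77.5% of genes with a contrast of 1.2 were recovered, 98.5% at 2.4 and 100% at 3.6, with 7, 7 and 4 unchanged genes called, and with no gene changed 0 were called. The changed genes were drawn from those well expressed in both control fractions, and the simulated noise was independent between libraries, without pairs. These rates therefore do not cover genes near 0 in a control fraction, such as Ptprcap or Gja5, or paired libraries. Figures were drawn with matplotlib 3.10.9 in python 3.11.15.

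The members and the 26 gene lists were chosen with earlier results of these data known, so the counts over lists are descriptions. Named genes were Chd4, Smarca4 and the label checks (Cdh5, Stab2, Mcam, Afp, Alb, Hba-a1 and Ptprc), the 15 called genes with the largest contrast in each direction whose mean was at least 5 TPM in some group (with fewer than 10 called, the 10 with the smallest p), and in each list up to 4 called members or otherwise the 2 with the largest contrast. The genes called in both fractions were named for that. Gene positions are from the GENCODE annotation of GRCm39, matched by Ensembl identifier for 13464 of the genes tested, and promoter sequences come from RefSeq on GRCm38.p6.

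Whether same-numbered libraries form pairs was checked on deviations from group means. LSEC and non-EC libraries of the same genotype and number correlated at 0.174 to 0.414 and those of other numbers at -0.312 to 0.0194, and among libraries of its genotype in the other fraction each of the 12 correlated best with its own partner, so the embryo was used as a replicate block in an alternative fit (estimated correlation 0.162). The pairing comes from these values and the labelled numbers, since the labels do not name an embryo. The other alternatives were a pseudocount of 0.1 TPM, no filter, a filter at a mean of 5 TPM, median-centred libraries, quantile normalization, TPM without mitochondrial or globin genes, no trend, the replicate number as a block, no fold threshold, all 24 libraries in 1 model, and each library left out in turn. The text describes only some of the 74 genes that the naming rule selects.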

Additional observations from a re-analysis of the deposited data

Results flagged for a closer look

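The test of the difference itself, the contrast between the double-knockout effects in LSECs and in non-EC cells, passed for 30 genes, of which the following were named by the rule. For members of the blood lists it was 3.34 for Hbb-bh1, 3.05 for Ptprcap, 2.15 for Car1, 2.12 for Myb and 1.51 for Adgrg1. Rac2 had 1.34, Was 1.17 and Ikzf1 1.00, and Nefh of the neuronal list had 1.75. Among genes in none of the lists it was 1.89 for Slc35d3, 1.65 for Samsn1, 1.48 for Ache, 1.45 for Mfsd2b and 1.45 for Foxh1. Ptpn7 had 1.32, Gpsm3 1.21 and Rbm38 1.2. In the other direction it was -1.90 for Gja5, -1.74 for Fam124a, -1.55 for Tm4sf1, -1.50 for Slc26a10, -1.39 for Nherf2, -1.26 for Chst7 and -1.2 for Mecom. With 3 libraries in each group, no outlier test was made.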

How the results depend on the processing

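Depth is unknown from TPM, and 3 embryos per group limit precision: an exact test of 3 against 3 cannot give a p below 0.1. Counts depended on the processing more than directions. All 24 called genes that the text names by rule kept their sign under each alternative that tested them, and each was called in 5 (Foxh1 and Ikzf1) to 22 (Ptprcap) of the settings run. Of 50 named genes that were not called, 6 changed sign under some setting.

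Against 30 genes called for the contrast, 1 was called with no filter on low values, 53 under quantile normalization, 67 with median-centred libraries, 15 with no trend, 55 with the embryo as replicate block and 8 with all 24 libraries in 1 model. The 23 higher became 1, 10 and 3 with no filter, with no trend and with all 24 libraries. The 7 lower became 0 with no filter, 28 under quantile normalization, 19 without mitochondrial genes, 19 also without globin genes, 43 with median-centred libraries and 21 with the embryo block. Under the no-filter setting 17819 genes were tested. With the replicate number as a block across genotypes, which did not pair the samples (correlations of -0.106 to 0.18), 26 were called. Apart from Alox5, Ramp2, Gpr182 and Tnnt2, which the embryo block called, that block changed no other call of a named gene.

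LSECs had 71 called genes with a mean of at least 5 TPM and 392 with no fold threshold, against 121. Non-EC cells had 70 with a pseudocount of 0.1 TPM, 18 with no filter, 21 under quantile normalization, 17 with all 24 libraries and 207 with no fold threshold, against 32. The contrast against Chd4-ECko had 0 calls in limma with a pseudocount of 0.1 TPM, 1 with a mean of at least 5 TPM and 2 with median-centred libraries, against 5, where 757 genes had an unadjusted p under 0.05. The 11 called members of the lists became 1, 19 and 3 with no filter, with median-centred libraries and with all 24 libraries.

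Leaving out a library gave 1 to 47 genes for the contrast, 1 to 42 of them higher and 0 to 5 lower, 85 to 153 in LSECs, 10 to 35 in non-EC cells, 3 to 130 against Chd4-ECko and 1 to 14 called list members. Among uncalled genes that changed sign, leaving out a library gave a contrast of Hba-a1 of -0.0483 to 0.851, a contrast of Alb of -0.0679 to 0.512, a contrast of Afp of -0.125 to 0.435 and a contrast of Hbb-bt of -1.19 to 0.652. It gave a contrast of Smarca4 of -0.0611 to 0.118 and a contrast of Mcam of -0.19 to 0.0573. Quantile normalization gave -0.125 for Afp and -0.0744 for Smarca4. For Smarca4, removing mitochondrial genes gave -0.0385, removing globin genes as well gave -0.0355 and centring gave -0.0973. The pseudocount of 0.1 TPM gave 0.00136 for Mcam. The cause of these changes was not tested.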
